A study of Mus musculus with 3 samples.

Results

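Src family kinases phosphorylate the antigen receptor chains of lymphocytes and so start their signalling. The genes described here are 6 members of this family, Blk, Lyn, Fyn, Lck, Fgr and Src, and 3 genes that set their activity, Csk, Pag1 and Ptprc. They were chosen by name, as the rows of these 9 symbols among the 24437 genes of the deposited tables, and each had 1 locus of status OK in every table. RNA sequencing covered 3 leukaemic thymuses of Mb1-CreDPB mice (strain C57BL/6), called leukaemia 1 (Thy_853), leukaemia 2 (Thy_854) and leukaemia 3 (Thy_857). In this model Cre, driven from the B lineage gene Cd79a (mb-1), deletes Spi1, which encodes the ETS factor PU.1, and all cells lack the related factor Spi-B, encoded by Spib. Ages and control samples were not analysed here, and the labels do not state in words that each thymus came from another mouse. Values given in threes are FPKM, the authors' fragment counts per transcript length and library size, in leukaemias 1, 2 and 3, and each ± is an SD over these n = 3 libraries.

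Blk and Lyn are the Src family kinases best known from B cells, and Lck is the one best known from T cells, where it binds the CD4 and CD8 coreceptors. Fyn is found in both lineages, and Fgr mainly in myeloid cells. In mice, loss of Blk, Fyn and Lyn together impairs signalling by the pre-B cell receptor, while loss of Blk alone has little effect on B cell development. Csk phosphorylates a tyrosine near the end of these kinases and holds them inactive, the membrane adaptor PAG, encoded by Pag1, can bring Csk to the membrane, and CD45, encoded by Ptprc, removes phosphate from that tyrosine.

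The libraries were B lineage in their markers. All 12 B lineage markers were at FPKM of at least 1 in every leukaemia. This level was also reached in every leukaemia by 8 of 12 T cell, 4 of 9 NK cell and 9 of 12 myeloid markers. Of the 10412 genes that reached it in any leukaemia, 9300 did so in all. The summed level of the B lineage markers was 9456, 7970 and 6217. The 12 T cell markers summed to 165, 45.9 and 38.8, the 9 NK cell markers to 138, 152 and 90.5, and the 12 myeloid markers to 437, 350 and 134. Cd247, a T cell receptor chain gene, was listed at 0 in leukaemias 2 and 3, and no other marker of these lists was listed at 0. In bulk RNA, fewer cells of a type and less RNA per cell cannot be told apart. Spi1 lay between 6.70 and 11.6 and Spib between 9.60 and 14.6, and exons outside a deletion also enter these values. For genes at FPKM of at least 1, the deposited 95% interval had a median half-width of 5.50%, 5.63% and 5.34% of its midpoint.

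Lck was the most abundant of the 6 Src family kinases, and Fyn ranked after it. The start regions of both are shown because the level of Lck pools transcripts of separate annotated starts, and because they differ in GGAA, the core that ETS factors bind. Windows from 250 bases before to 50 bases after a start were taken from RefSeq (GRCm38.p6) for 6 of the 9 genes, and those of Blk, Lyn and Pag1 were not used here. Both Lck windows are on the minus strand, the upstream one at chr4:129573592-129573891 and the downstream one at chr4:129558323-129558622, and that of Fyn is on the plus strand at chr10:39369549-39369848. Each is printed 5′ to 3′ along the gene, with GGAA and its reverse complement TTCC in capitals.
Lck, upstream start: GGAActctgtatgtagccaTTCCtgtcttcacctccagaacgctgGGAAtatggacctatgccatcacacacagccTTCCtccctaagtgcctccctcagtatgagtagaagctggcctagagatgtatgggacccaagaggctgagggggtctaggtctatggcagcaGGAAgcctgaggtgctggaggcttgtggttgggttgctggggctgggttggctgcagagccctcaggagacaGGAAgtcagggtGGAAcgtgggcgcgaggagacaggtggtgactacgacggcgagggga
Lck, downstream start: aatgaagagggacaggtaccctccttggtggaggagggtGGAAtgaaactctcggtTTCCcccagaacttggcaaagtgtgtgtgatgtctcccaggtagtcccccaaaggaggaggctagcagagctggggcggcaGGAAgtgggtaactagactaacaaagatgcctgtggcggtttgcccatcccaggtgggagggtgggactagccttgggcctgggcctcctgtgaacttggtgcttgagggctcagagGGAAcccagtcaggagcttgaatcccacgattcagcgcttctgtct
Fyn: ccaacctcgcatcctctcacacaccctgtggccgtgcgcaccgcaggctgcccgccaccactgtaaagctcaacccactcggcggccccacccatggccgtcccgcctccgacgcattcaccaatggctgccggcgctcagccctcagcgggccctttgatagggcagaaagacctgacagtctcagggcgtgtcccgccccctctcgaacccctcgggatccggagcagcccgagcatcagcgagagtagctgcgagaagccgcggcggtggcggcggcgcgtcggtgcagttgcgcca

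The upstream Lck window held 7 GGAA cores on either strand, the downstream one 4 and the Fyn window 0. These windows were picked after the counts were seen, and include the highest and the lowest. The windows of the other members held 4 and 6 (Csk), 4 (Fgr), 2 and 5 (Ptprc) and 2 (Src). Of 32851 RefSeq windows of the same length, 96.0% held at least 1 core, 8.02% held 7 or more and 4.02% held none. The longer word AGGAAGT, which contains the core and was chosen after these letters were seen, occurred once in each Lck window, beginning 10 bases before the upstream start and 114 bases before the downstream one. It also occurred in both Ptprc windows, with 2 matches in one and 1 in the other, and in none of those of Csk, Fgr, Fyn and Src. The Ptprc windows overlap, at chr1:138175077-138175376 and chr1:138175256-138175555. The single match in the former is the same site as 1 of the matches in the latter. Its GGAA core was likewise counted in both Ptprc windows. Of all windows, 9.35% held AGGAAGT on either strand. A match of letters is a description of the window and no measure of binding. The gene tables do not show which Lck start was used.

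**Figure D1:**
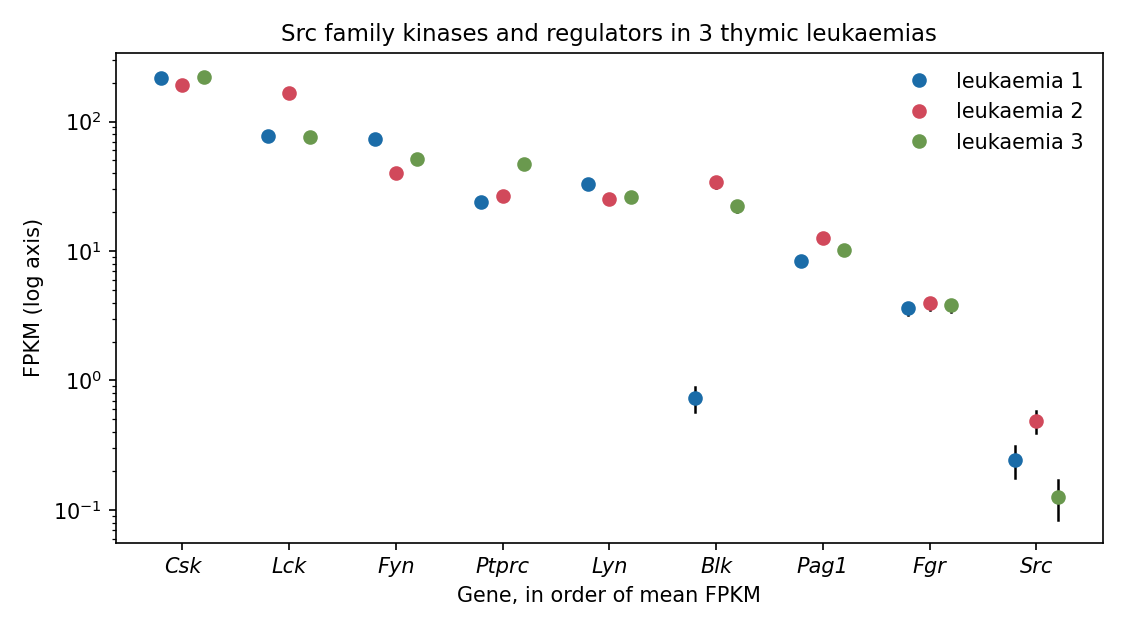
FPKM (log axis) of the 9 genes in each leukaemia (points), ordered by mean, with the deposited 95% interval as a vertical line. Blk stands at 0.727 in leukaemia 1 against 33.9 and 22.3 in the others, and Lck at 165 in leukaemia 2 against 77.1 and 75.6.

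Blk, on chromosome 14 from 63372837 to 63417187 in mm10 coordinates, was the gene that varied most. Its FPKM was 0.727, 33.9 and 22.3, a mean of 18.97 ± 16.8. Leukaemia 1 was low and the other libraries were high. The mean rests on which libraries enter it, with 28.1 without leukaemia 1 and 11.5 without leukaemia 2. The deposited interval of Blk in leukaemia 1 ran from 0.567 to 0.886. In leukaemias 2 and 3 the intervals ran from 30.4 to 32.9 and from 19.96 to 22.1, so that in both libraries the FPKM exceeded its upper bound. Blk in leukaemia 2 was 46.6 times its level in leukaemia 1, and 34.3 times by the nearest interval bounds. Against leukaemia 3 these ratios were 30.6 and 22.5.

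Lyn, on chromosome 4 from 3678121 to 3791612, varied little. Its FPKM was 32.7, 25.1 and 25.99, a mean of 27.9 ± 4.17. Leukaemia 1, with the lowest Blk, had the highest Lyn, and its interval lay apart from those of the other leukaemias, which overlapped each other. The excess was small, at 1.30 times leukaemia 2 and 1.26 times leukaemia 3. Lyn stood at 44.9 times Blk in leukaemia 1, at 0.738 times Blk in leukaemia 2 and at 1.17 times Blk in leukaemia 3.

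Fyn, on chromosome 10 from 39369799 to 39565374, was also highest in leukaemia 1. Its FPKM was 73.7, 39.9 and 51.6, a mean of 55.1 ± 17.1, and no pair of its intervals overlapped. Leukaemia 1 exceeded leukaemia 2 by 1.85 times and leukaemia 3 by 1.43 times. T cell markers moved the same way, with 11 of 12 highest in leukaemia 1 and a summed level of 165 there against 45.9 and 38.8. So did 8 of 9 NK cell markers, although their sum, led by Gzma at 17.1, 125 and 62.6, was highest in leukaemia 2. Of the myeloid markers 10 of 12 were highest in leukaemia 1, with a sum of 437, 350 and 134, and of the B lineage markers 7 of 12. Over all genes that reached FPKM of 1 in a leukaemia, 4267 of 10412 were highest there. The part of these cells in the Fyn level was not tested.

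Lck, on chromosome 4 from 129548344 to 129573641, was highest in leukaemia 2, whereas 11 of the 12 T cell markers were highest in leukaemia 1. Its FPKM was 77.1, 165 and 75.6, a mean of 106 ± 51.0. Leukaemia 2 was high, and the intervals of leukaemias 1 and 3 overlapped. Cd3e, which encodes a chain of the T cell receptor complex, stood at 20.1, 3.51 and 4.87. In leukaemia 1 the FPKM of Cd3e lay above its deposited upper bound. Lck stood at 3.83, 46.9 and 15.5 times Cd3e, a ratio that falls where Cd3e is high whatever Lck does. Bcl11b, a T lineage transcription factor gene and the other marker of that list, was also highest in leukaemia 2, at 1.61, 12.7 and 0.378. The corresponding ratios of Fyn to Cd3e were 3.66, 11.4 and 10.6, also lowest in leukaemia 1, where Fyn itself was highest. The part of T cells in the Lck level was not tested.

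Fgr and Src were low. Fgr, on chromosome 4 from 132974095 to 133001882, stood at 3.65, 3.96 and 3.80, a mean of 3.80 ± 0.155, and its intervals overlapped in every pair. The summed myeloid markers spanned 437 to 134 over the same libraries. S100a8, the highest of these markers by mean, stood at 117, 92.1 and 13.8, and Csf1r at 6.42, 5.60 and 3.42. The part of myeloid cells in the Fgr level was not tested. Src, the founding member of the family, on chromosome 2 from 157424293 to 157471838, stood at 0.241, 0.486 and 0.125. Its intervals lay apart in every pair, but its level stayed below 1 throughout.

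**Figure D2:**
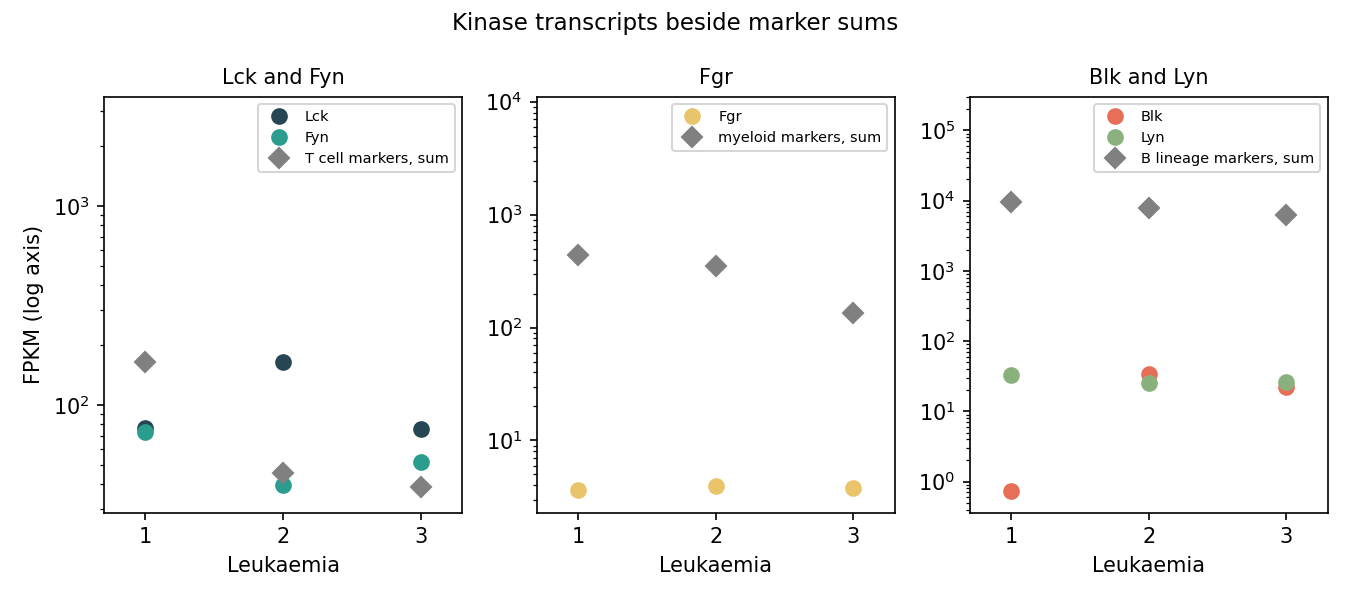
FPKM (log axis) in each leukaemia of Lck and Fyn, of Fgr, and of Blk and Lyn (circles), beside the summed FPKM of 12 T cell, 12 myeloid and 12 B lineage markers (diamonds). Lck is highest in leukaemia 2, where the T cell sum is 45.9, and Blk is lowest in leukaemia 1, where the B lineage sum is 9456.

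Yes1 and Frk, further kinases of the family, added little. Yes1 stood at 0.0775, 0.169 and 0.0116 and Frk at 0.0181, 0 and 0.0137. Of the Src-related kinases, Srms was listed at 0.0137, 0 and 0 and Ptk6 at 0 in every leukaemia. None of these 4 genes reached FPKM of 1.

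The 6 kinases of the set, Yes1 and Frk together summed to 188, 268 and 179 FPKM. Lck made up 40.97%, 61.4% and 42.1% of that sum, Fyn 39.2%, 14.9% and 28.8% and Lyn 17.4%, 9.34% and 14.5%. Lck and Fyn thus made up 80.1%, 76.3% and 70.9% of the transcripts of these 8 kinases in RNA of the whole leukaemic thymus. The part of T cells in these shares was not tested. Blk made up 0.387%, 12.7% and 12.4%. Without Blk the sum was 187, 234 and 157 FPKM, so leukaemia 1 lay between the others in the transcripts of the remaining kinases. Transcript level is no measure of kinase activity, which phosphorylation sets.

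**Figure D3:**
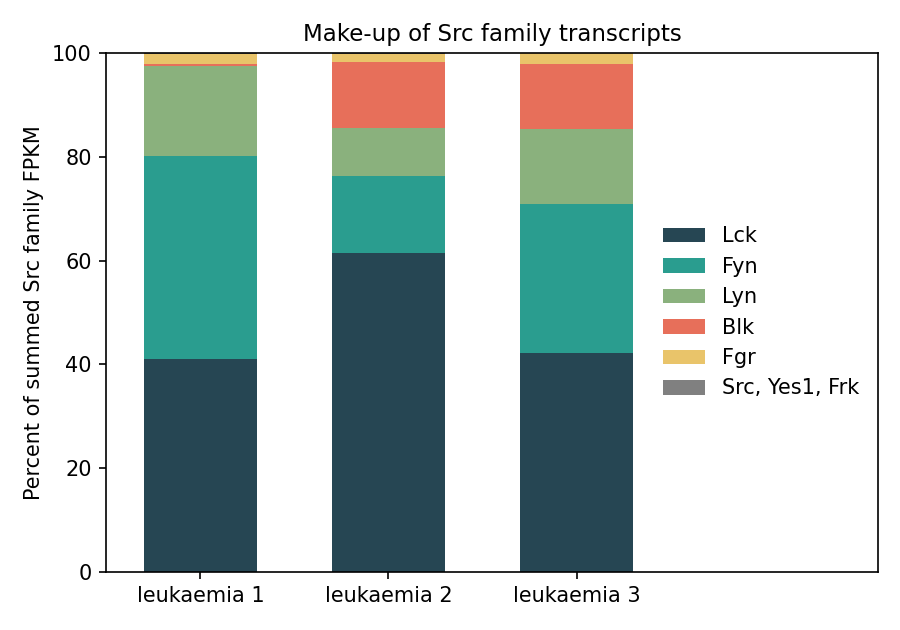
Percent of the summed FPKM of 8 Src family kinases that each kinase made up in each leukaemia (stacked bars). Blk is 0.387% in leukaemia 1 and 12.7% and 12.4% in leukaemias 2 and 3, and Lck and Fyn are the largest parts in every leukaemia.

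Csk was the most abundant of the 9 genes, and Ptprc was the most variable of the regulators. Csk, on chromosome 9 from 57626646 to 57653631, stood at 217, 190.3 and 221, a mean of 209.6 ± 16.9. Leukaemia 2 was lowest, and the intervals of leukaemias 1 and 3 overlapped. The 8 summed kinases stood at 0.866, 1.41 and 0.811 times Csk. Pag1, on chromosome 3 from 9687482 to 9833679, stood at 8.40, 12.6 and 10.2, a mean of 10.4 ± 2.12, with all intervals apart. Ptprc, on chromosome 1 from 138062859 to 138175305, stood at 23.7, 26.6 and 46.7, a mean of 32.3 ± 12.6. Leukaemia 3 was high, at 1.97 times leukaemia 1 and 1.76 times leukaemia 2. Csk stood at 9.17, 7.16 and 4.73 times Ptprc.

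By mean level the order was Csk, Lck, Fyn, Ptprc, Lyn, Blk, Pag1, Fgr and Src. Neighbours were compared by their difference in log2(FPKM + 1) within each library. Csk exceeded Lck by 1.08 ± 0.75, Pag1 exceeded Fgr by 1.23 ± 0.22 and Fgr exceeded Src by 1.91 ± 0.18, each in 3 of 3 leukaemias. Fyn exceeded Ptprc by 0.77 ± 0.75, in 3 of 3 leukaemias but barely beyond the spread. Lck exceeded Fyn in 3 of 3 leukaemias, by 0.87 ± 1.02, a mean within its spread, since they were nearly level in leukaemia 1 and 4.12 times apart in leukaemia 2. Ptprc and Lyn, Lyn and Blk, and Blk and Pag1 changed places between leukaemias. With 3 libraries an exact sign-flip permutation test, two-sided, cannot give a p below 0.25, so no p is given.

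Each pair of leukaemias was then compared across all genes. A gene was counted as differing where log2(FPKM + 1) lay at least 1 apart, FPKM was at least 1 in either leukaemia and the deposited intervals did not overlap. With 1 library on each side there is no replicate check and no p-value, and each library enters more than 1 pair. Src did not reach FPKM of 1, so 8 of the 9 genes could be counted. Between leukaemias 1 and 2, Blk and Lck differed, both higher in leukaemia 2, by 4.34 and 1.08 on the log2 scale. Over all 10295 genes compared, 8.16% differed, 2.60% being higher in leukaemia 2 and 5.56% in leukaemia 1. Between leukaemias 1 and 3, only Blk of the 8 differed, by 3.75, where 9.98% of 10265 genes did, 3.22% being higher in leukaemia 3 and 6.75% in leukaemia 1. Between leukaemias 2 and 3, only Lck of the 8 differed, higher in leukaemia 2 by 1.11, where 4.68% of 10047 genes did, 2.96% being higher in leukaemia 2 and 1.72% in leukaemia 3. Counts of 1 or 2 among 8 genes are too small to set apart from these shares. With a difference of at least 2 required, Blk was still counted in both of its pairs and Lck in neither, while 1.64%, 1.75% and 1.17% of all genes were counted in these pairs.

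Ptprc came close to the threshold without passing it, 0.95 lower in leukaemia 1 and 0.79 lower in leukaemia 2 than in leukaemia 3. Fyn was 0.87 higher in leukaemia 1 than in leukaemia 2, also below the threshold. The median absolute difference of all 9 genes, Src included, was 0.37, 0.25 and 0.36 for leukaemias 1 and 2, 1 and 3, and 2 and 3. Over all genes compared, a set without those below FPKM of 1, it was 0.27, 0.31 and 0.18.

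**Figure D4:**
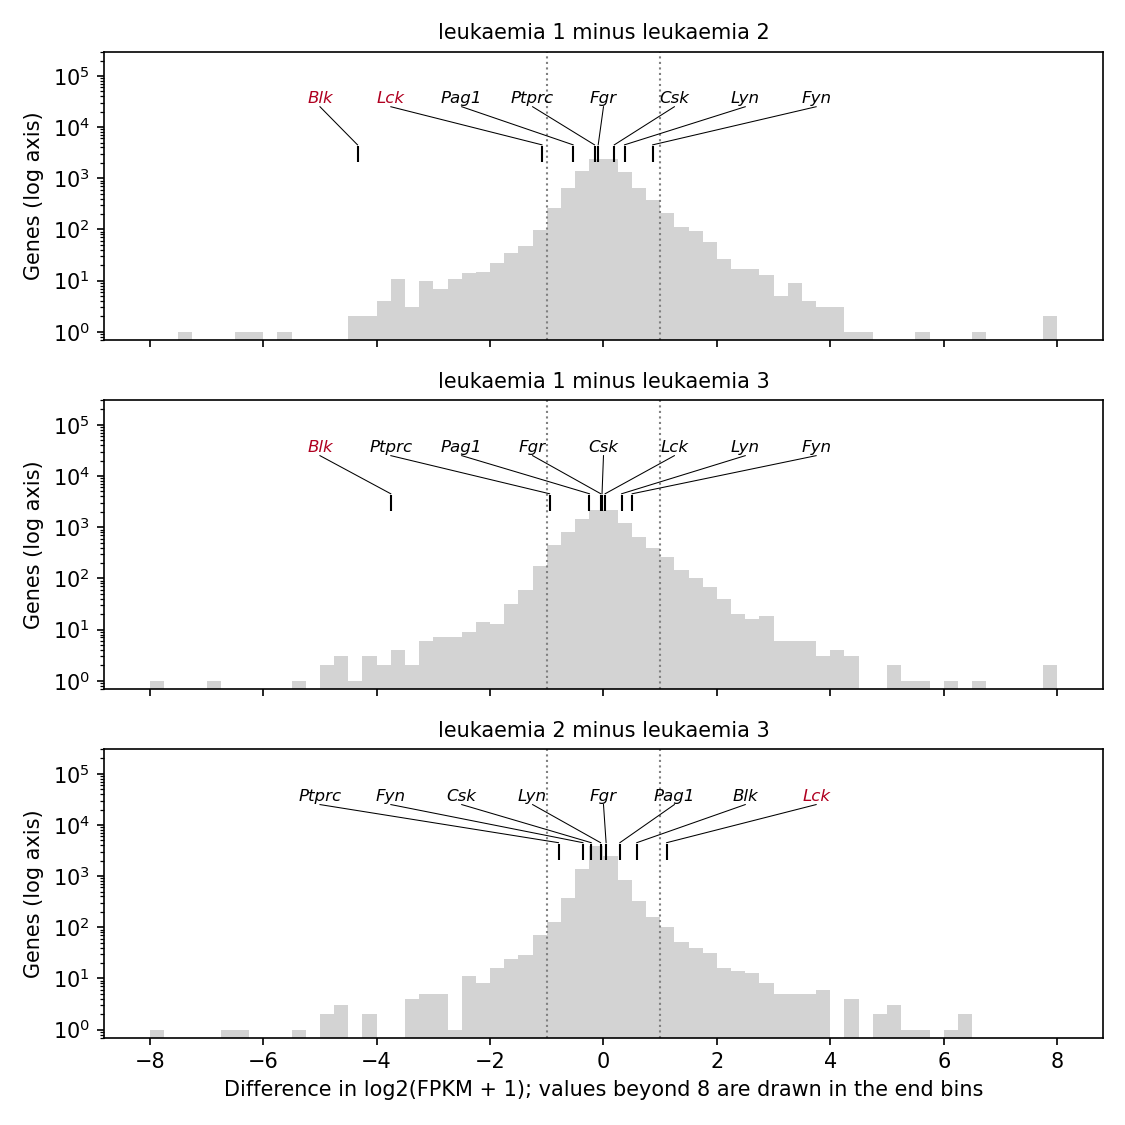
Number of genes (log axis) by their difference in log2(FPKM + 1) for each pair of leukaemias (grey bars, all genes compared), with the 8 counted genes marked above and the threshold of 1 as dotted lines. Names in red met all criteria, namely Blk and Lck between leukaemias 1 and 2, Blk between 1 and 3 and Lck between 2 and 3.

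Few genes lay further below in leukaemia 1 than Blk did. Against leukaemia 2 there were 4, all listed at 0 in leukaemia 1, which need not mean absence. Against leukaemia 3 there were 13, of which 10 were listed at 0. Among 7844 genes that reached FPKM of 5 in a leukaemia, the 5 whose differences over the 3 libraries lay nearest to those of Blk were Aff1, Cmc1, Snora15, Gja1 and Acat1. Aff1, at a distance of 0.29 on the log2 scale, stood at 0, 15.6 and 11.8, Cmc1 at 0, 13.3 and 14.3, and the small nucleolar RNA gene Snora15 at 0, 13.7 and 8.43. Gja1, which encodes the gap junction protein connexin 43, stood at 1.37, 28.6 and 25.6. Acat1, which encodes a mitochondrial acetyl-CoA acetyltransferase, stood at 1.86, 34.8 and 28.4. Likeness over 3 libraries is a description of these values.

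Of 18 other regulators of the family, 16 were at FPKM of at least 1 in every leukaemia. Highest were Sit1, a membrane adaptor of lymphocytes, at 177, 143 and 133, Ptpn6, which encodes the phosphatase SHP-1, at 114, 154 and 119, and the inhibitory adaptor gene Dok3 at 137, 113 and 111. The FPKM of Sit1 and Dok3 lay above their deposited upper bounds. Matk, which encodes a kinase related to Csk, was lowest at 0.716, 0.264 and 0.204. Ptpn22, which encodes a phosphatase that binds Csk, stood at 15.5, 13.8 and 2.94 and was counted as lower in leukaemia 3 than in either other library. Dok2, an adaptor gene, stood at 4.18, 1.13 and 1.05 and was counted as higher in leukaemia 1 than in either of the rest. The remaining genes of this list met the criteria in no pair. For leukaemias 1 and 2, 1 and 3, and 2 and 3, 1, 2 and 1 of the 16 genes compared thus differed. Over all genes 8.16%, 9.98% and 4.68% differed, and these counts are too small to set apart from those shares. The median difference of all 18 genes was 0.20, 0.30 and 0.08 for leukaemia 1 minus 2, 1 minus 3 and 2 minus 3. Over all genes compared, a set without those below FPKM of 1, it was 0.02, -0.01 and -0.06.

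Genes of the proteins that work with these kinases at antigen receptors were abundant and mostly highest in leukaemia 1. All 17 genes were at FPKM of at least 1 in every leukaemia, and 14 were highest in leukaemia 1, as were 4267 of the 10412 genes that reached FPKM of 1 in a leukaemia. The receptor chain genes Cd79a and Cd79b stood at 669, 715 and 486 and at 712, 500.1 and 455, and Cd72, an inhibitory coreceptor gene, at 597, 373 and 401. Higher in leukaemia 1 than in leukaemia 2 were 3 of 17 genes by the same criteria, where 5.56% of all genes compared were, and none was lower, where 2.60% were. The 3 higher genes were the inhibitory coreceptor gene Cd22 (235, 107 and 146) and the adaptor genes Blnk (53.9, 14.6 and 37.9) and Pik3ap1 (36.02, 11.8 and 17.1). Against leukaemia 3, 4 of 17 were higher in leukaemia 1, where 6.75% of all genes were, and 1 was lower, where 3.22% were. The 4 higher genes were Pik3ap1, Lat (169, 113 and 67.8), Plcg1 (19.5, 10.6 and 1.79) and Hcls1 (256, 162 and 126), and the lower one was the adaptor gene Lat2 (1.18, 2.13 and 3.75), the lowest of the list by mean. Between leukaemias 2 and 3, Plcg1 and the inhibitory Fc receptor gene Fcgr2b (3.93, 7.45 and 2.61) were higher in leukaemia 2, where 2.96% of all genes were, and Blnk was higher in leukaemia 3, where 1.72% were. The median difference of the list was 0.51, 0.50 and 0.10 for leukaemia 1 minus 2, 1 minus 3 and 2 minus 3. The adaptor gene Lat was highest in leukaemia 1, as were 11 of 12 T cell markers but also 14 of the 17 genes of this list. The part of T cells in the Lat level was not tested.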

How the data were processed

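RNA was extracted from homogenised thymuses after red cell lysis and sequenced from standard Illumina libraries, per the labels' protocols. Trim Galore 0.2.8.1, TopHat2 2.0.9, Cufflinks and Cuffdiff 2.1.1 with the build mm10 are named in the submitters' processing notes, which give neither settings nor strand handling. Per the file headers, the authors deposited 1 table for each leukaemia with an FPKM, a 95% interval and a status for every gene. Without counts the depth is unknown, and count tests could not be applied. Each table was matched to its sample by the number in its sheet name.

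Of 25020 rows per table, 26 whose symbol had become a date were left out, and values were summed over the loci of a symbol. The intervals cover how fragments were counted and assigned within a library and say nothing of the spread between animals. FPKM exceeded its own upper bound in 27.1%, 28.1% and 28.4% of genes at FPKM of at least 1. Starts have 1 added, after which 5 of 9 equalled the RefSeq start. In GENCODE M21, exons of Lyn overlap those of Gm26857 on the opposite strand and exons of Lck those of Mir8119, and their reads could be shared.

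Differences were computed on log2(FPKM + 1), which understates those of low genes. The text names all 9 genes, the 3 highest, the lowest and the differing genes of each of 3 kinase, regulator and partner lists, and the 5 genes nearest to Blk by Euclidean distance, leaving out Gm, Rik and accession names. Marker lists are given by counts and sums, and the markers named with values (Cd3e, Bcl11b, Gzma and Cd247) were chosen after their values were seen. Some planned list genes are not reported here and were left out of counts and sums. The genes and lists were chosen with earlier results of these data known. The calls were run on simulated data with counting error alone, at an assumed depth. Such data hold no spread between animals, so they do not show how the calls perform here. Python 3.11.15, numpy 2.4.6, pandas 2.3.3 and matplotlib 3.10.9 were used.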

Additional observations from a re-analysis of the deposited data

How the results depend on the processing

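The counts of differing genes among the 9 were recomputed with pseudocounts of 0.1 and 0.01, without a filter and with FPKM of at least 5, with a difference of at least 2, without the interval criterion, after rescaling by the median ratio, with interval midpoints in place of FPKM and with rows of status OK alone. The 3 counts of 2, 1 and 1 kept their value and their genes under all of these but 1. All 9 genes were of status OK, so that setting could not change the counts. Dropping the filter could add only Src, whose differences lay below the threshold of 1. With a difference of at least 2 on the log2 scale, 1 gene (Blk) differed between leukaemias 1 and 2 and 0 between leukaemias 2 and 3, where Lck was lost because its differences were 1.08 and 1.11, while 1.64% and 1.17% of all genes differed in those pairs. Over all genes, pseudocounts of 0.1 and 0.01 raised the counts from 840 to 1291 and 1345 between leukaemias 1 and 2, and from 470 to 735 at most between 2 and 3, and a pseudocount of 0.01 raised them from 1024 to 1558 between 1 and 3. Requiring a difference of at least 2 lowered them to 169, 180 and 118, and FPKM of at least 5 lowered the count between leukaemias 2 and 3 to 287. Mean levels and shares moved by less than 1 SD in all 102 recomputations, which left out each library, rescaled, used midpoints or used the locus of highest FPKM. Leaving out 1 of 3 libraries cannot move a mean by 1 SD, and each gene had 1 locus, so neither change could fail. Rescaling cannot change a share either, so only the rescaled levels and the midpoints were a check. Leaving out each library in turn gave Blk a mean between 11.5 and 28.1 FPKM. Rescaling moved the median gene by at most 0.03 on the log2 scale. No paired analysis was possible because the libraries form 1 group. With no fragment counts deposited, only the intervals show how depth limits low genes such as Src.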
